A study of Bos taurus with 15 samples.

Results

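Of 58610 stretches of 10 kb that were well covered in both tissues, 1348 (2.30%) were less methylated in the liver of bull calves than in the mammary gland of heifers by 15 percentage points or more. These bins, on chromosomes 1 to 29, were chosen on that measured difference. A bin was eligible when it held at least 50 distinct cytosine positions over the 6 heifers and at least 50 over the 9 calves. Its level in a tissue was the percent of methylated reads, averaged at each position over the animals and then over positions. In the opposite direction, 3262 eligible bins (5.57%) were higher in liver by at least 15 points, and the median over all eligible bins was a mammary minus liver difference of -3.32 points (SD 8.12 over bins). The chosen bins thus lay on the less populated side of the distribution.

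All animals were Holstein cattle whose dams were either heat stressed with shade alone or cooled with shade, fans and soakers, during the last 6 to 7 weeks of gestation. Liver was taken at birth from bull calves of cooled dams (IUCL-B, in utero cooled, calves 1 to 5, n = 5) and of heat stressed dams (IUHT-B, in utero heat stressed, calves 2 to 5, n = 4). Mammary gland was taken on day 21 of the first lactation from heifers of cooled dams (IUCL-H, n = 3) and of heat stressed dams (IUHT-H, n = 3), which were managed alike from birth. Tissue, sex and age coincide in this design and cannot be told apart. Every heifer library also covered more positions than every calf library, so breadth of coverage coincides with tissue as well. A whole tissue is a mixture, so a different share of cell types and a different level within a cell cannot be told apart either. The labelled tissues were not checked against marker genes, since the files hold no expression and gene positions of their genome build were not used here. Calves carry the number of their label, and heifers are numbered in record order.

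In mammals most CpG cytosines are methylated, and the unmethylated exceptions are mainly CpG islands, many promoters and active enhancers. Tissues differ at a part of the CpGs, often at enhancers and other regulatory stretches, which tend to be less methylated in the cells that use them. Reduced representation bisulfite sequencing reads the cytosines next to the cut sites of restriction enzymes, so it favours CpG-rich sequence and leaves the rest of a bin unmeasured.

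Coverage differed most among calves. The heifer files held 13949097 to 20240625 methylation calls at 7552567 to 9753540 positions, and the calf files 10484911 to 38221835 calls at 307023 to 5958861 positions. Many positions did not mean many calls at each, since IUCL-B calf 1 had 35408716 calls at 1052206 positions and IUCL-B calf 4 24551398 at 3289592. In the chosen bins the median number of positions per bin was 54 in IUCL-B calf 5, 27 in IUCL-B calf 4 and 2 to 7 in each of the other 7 calves, against 59 to 82 in the heifers. IUCL-B calves 4 and 5 supplied 70.8% of the calf measurements in the chosen bins and 66.2% in all eligible bins. The liver level of a bin therefore rests mainly on these 2 control calves. Levels are also given in the other calves, whereas the results on windows, chromosomes, neighbours and numbers of groups rest on all 9 calves together.

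The median level of the chosen bins was 66.5% in mammary gland (21.0 to 95.7%) and 44.2% in liver (4.84 to 79.7%), while all eligible bins had medians of 75.5% and 79.9%. The median difference was 18.8 points (quartiles 16.5 and 22.8), with a median standard error over positions of 5.61 points. That error treats all positions as independent, although both strands of a CpG are listed apart, and gives no measure of the spread between animals. Differences of 15 to under 20 points made up 789 bins, 559 bins reached 20 points, 99 reached 30 points and 11 reached 40 points. In 581 bins mammary gland lay between 40 and 70%, with a median of 54.4% against 32.9% in liver. A further 549 bins were at 70% or more in mammary gland and at 50% or more in liver, with medians of 81.8% and 62.2%. Only 59 chosen bins were at 70% or more in mammary gland and under 50% in liver, and 159 bins lay under 40% in mammary gland, with medians of 34.9% and 15.6%. Coverage was close to that of other bins, with a median of 182 mammary and 86 liver positions per chosen bin against 188 and 87 per eligible bin.

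At the threshold, the 3 bins just inside were chr24:22070000-22079999, chr18:46520000-46529999 and chr28:27530000-27539999, with differences of 15.0081, 15.0106 and 15.0114 points. The 3 just outside were chr7:13580000-13589999, chr10:81720000-81729999 and chr24:43190000-43199999, at 14.9986, 14.9965 and 14.9919 points. Since the standard error over positions in these 6 bins was 3.64 to 7.56 points, bins on either side of the threshold were not told apart by their levels.

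Within single animals, every heifer had a higher mean level over the positions of the chosen bins than every calf. The choice used the values of these animals, so this separation is a description. The IUCL-H heifers were at 69.9, 72.1 and 64.3%, and the IUHT-H heifers at 66.3, 69.0 and 64.5%. IUCL-B calves 1 to 5 were at 54.3, 54.7, 55.5, 44.0 and 39.4%, and IUHT-B calves 2 to 5 at 51.8, 53.7, 52.2 and 51.8%. The 2 calves with the most positions were thus the lowest, and the 7 others lay close together between 51.8 and 55.5%. Over all eligible bins heifers were at 70.1 to 75.4% and calves at 70.5 to 77.6%, and the 2 tissues overlapped there. Each animal is averaged over its own positions, so differences between animals include differences in what was covered.

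**Figure D1:**
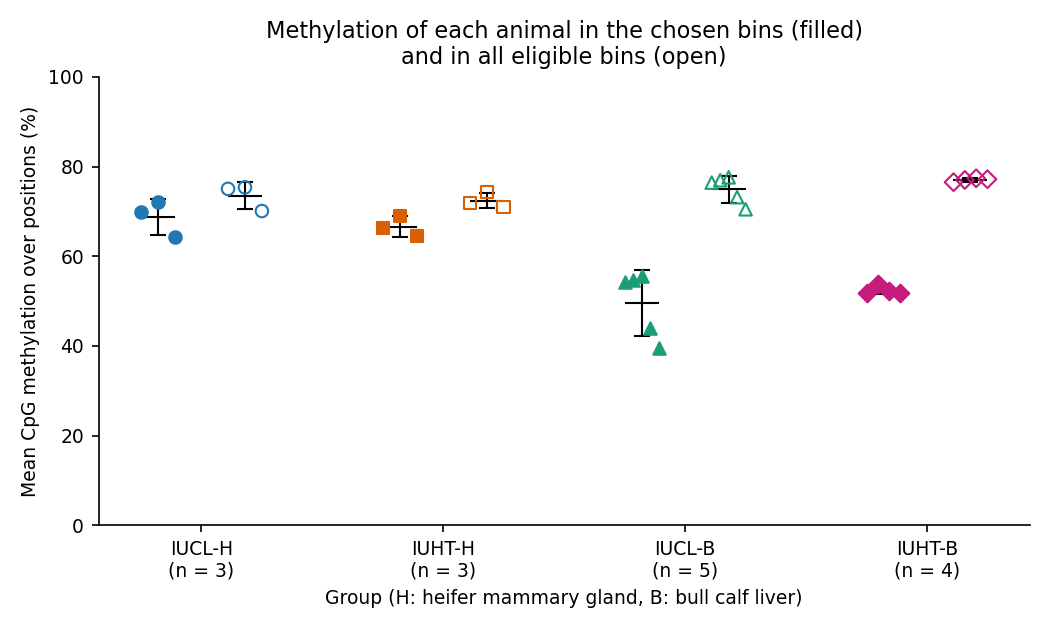
Mean methylation (%) over the covered positions of each animal, in the 1348 chosen bins (filled) and in all 58610 eligible bins (open); the x axis gives the 4 groups, bars are the mean ± SD over animals. In the chosen bins, which were chosen on these animals, the 9 calves lie between 39.4 and 55.5% and the 6 heifers between 64.3 and 72.1%. In all eligible bins the tissues overlap.

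Of single bins, 936 chosen bins had at least 5 positions in every heifer and in at least 5 calves, and in 161 of them every heifer was above every calf measured. The same held in 346 of 46476 eligible bins (0.744%), and since the choice used this contrast both counts are given as a description. With at least 7 calves measured, 62 of 433 chosen bins were apart, against 136 of 26394 eligible bins (0.515%).

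The bin with the largest difference among the 304 chosen bins with enough coverage in single animals was chr2:40010000-40019999, at 84.1% in mammary gland and 24.2% in liver, a difference of 59.9 points (SE 3.76 over positions). The IUCL-H heifers were at 81.6, 86.9 and 86.8% and the IUHT-H heifers at 84.6, 80.6 and 87.8%. Calves with at least 10 positions in the bin were at 38.0, 52.8, 37.5, 29.5 and 19.5% (IUCL-B 1 to 5) and at 38.5% (IUHT-B calf 4). All calves shown were below all heifers, and at the 107 positions read in both tissues the difference was 61.3 points. Of its 7 windows of 1 kb, 6 were lower in liver by 15 points or more, by up to 77.5 points, and 1 was 15.3 points higher in liver. The next bin to the right was a chosen one at 25.7 points, and the bin to the left differed by 1.51 points.

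In chr11:64770000-64779999 mammary gland was at 67.1% and liver at 23.0%, a difference of 44.1 points (SE 4.05). The IUCL-H heifers had levels of 69.0, 68.6 and 77.3% and the IUHT-H heifers of 63.5, 66.5 and 71.5%. IUCL-B calves 1 to 5 were at 17.3, 7.38, 25, 27.9 and 22.4%, far below the lowest heifer, and no IUHT-B calf had 10 positions. At shared positions the difference was 35.8 points.

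Partial methylation in mammary gland marked chr21:32110000-32119999, at 48.8% against 11.5% in liver (difference 37.3 points, SE 2.58). Heifers ranged from 34.2 to 58.2% and the 5 IUCL-B calves from 7.98 to 18.8%, so the groups did not overlap although the heifers were widely spread. The left neighbour was itself a chosen bin at 19.3 points, and 6 of its 7 windows were lower in liver.

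Calves disagreed in other bins of large difference. With all calves but IUCL-B 4 and 5, which left 26 to 54 liver positions per bin, the 10 named bins had differences of 8.24 to 52.1 points (median 22.3), and 7 stayed at 15 points or more. The 3 that did not were chr3:105970000-105979999 (8.24 points), chr16:39020000-39029999 (8.32 points, and 14.4 points with all calves when weighted by reads) and chr19:37310000-37319999 (14.95 points). In chr3:105970000-105979999 (86.8% against 48.0%, 38.8 points, SE 5.79), IUCL-B calves 4 and 5 were at 29.2 and 43.8%, whereas IUCL-B calves 1 and 2 were at 81.8% each and IUHT-B calf 2 at 85.7%, beside heifers at 83.7 to 90.2%. IUCL-B calves 1 and 2 were thus just under the heifer range and IUHT-B calf 2 was within it. At the 54 shared positions the difference was 27.6 points, weighting positions by their reads left 12 points, and without IUCL-B calves 4 and 5 it was 8.24 points. In chr16:47750000-47759999 (74.2% against 36.8%, 37.4 points, SE 3.51), IUCL-B calves 4 and 5 were at 20 and 33.7% and IUHT-B calf 4 at 17.6%, while IUCL-B calves 1 and 3 and IUHT-B calf 2 were at 68.4, 78.3 and 62.1%. Without IUCL-B calves 4 and 5 its difference was 15.2 points.

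The remaining 5 of the 10 bins named by the size of their difference were chr23:51450000-51459999 (35.6 points), chr18:64010000-64019999 (35.5 points), chr16:39020000-39029999 (35.3 points), chr19:37310000-37319999 (34.6 points) and chr29:46300000-46309999 (34.4 points). In the first 2 of these mammary gland was at 81.7 and 88.9% and liver at 46.1 and 53.4%. The other 3 had mammary levels of 60.2 to 67.2% and liver levels of 24.8 to 32.9%. Over the 10 bins, 47 of the 52 calf values with at least 10 positions were below every heifer, and in 6 bins all such calves were. Of the 16 neighbouring bins that were eligible, 13 had a difference above 0 and 8 were chosen bins themselves.

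**Figure D2:**
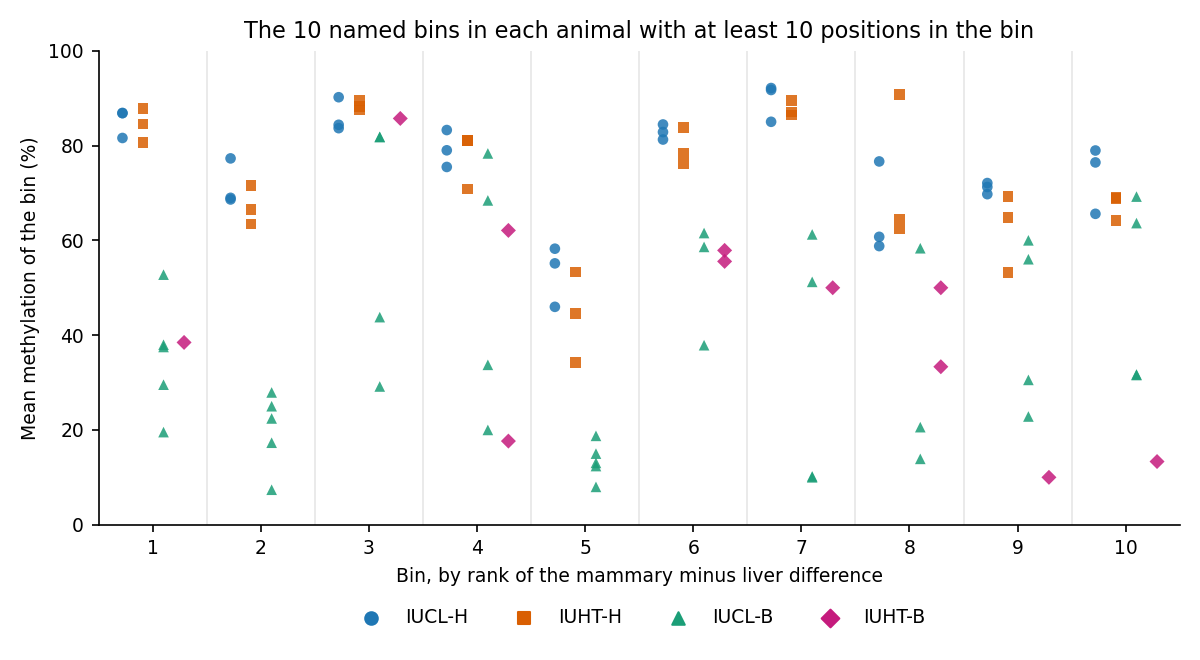
Mean methylation (%) of the 10 named bins, ordered on the x axis by the size of the mammary minus liver difference, with 1 point for each animal that had at least 10 positions in the bin. Heifers stand above all calves shown in 6 of the 10 bins, and single calves reach the heifer range or come near it in the others, as in the third bin, where IUHT-B calf 2 was at 85.7% and heifers at 83.7 to 90.2%.

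The 2 tissues were partly read at different cytosines. Of the chosen bins, 1333 had at least 20 positions read in at least 1 heifer and 1 calf. At those shared positions the median difference was 15.7 points, 1226 bins stayed above 0, 702 stayed at 15 points or more, and the lowest was -21.4 points. Over all eligible bins the median at shared positions was -3.44 points. The shared positions are a part of those that chose the bins, and why the difference was smaller there was not tested.

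The choice itself favours animals whose values happened to be extreme, so it was repeated without each animal in turn and the bins were then read in the animal left out. In the left-out heifers the median difference to the calves was 16.1 to 24.3 points, and 92.0 to 99.8% of the bins were above 0. All 9 calves had taken part in each of these choices, so here only the heifer side is free of the choice. In the left-out calves the median was 9.27 (IUCL-B calf 3) to 15.7 points (IUCL-B calf 5), with 66.8 to 92.3% of bins above 0. Over all eligible bins the corresponding medians were -1.11 to -3.03 points for heifers and -3.34 to -7.46 points for calves. Restricting each comparison to positions that both the calf and the heifers covered gave 12.6, 12.4, 11.6, 12.2 and 15.5 points in IUCL-B calves 1 to 5 and 13.1, 12.3, 12.4 and 12.8 points in IUHT-B calves 2 to 5. All 9 calves were therefore lower than the heifers in bins they had not helped to choose, although all 6 heifers had taken part in each choice, so that the calf side alone is free of it. Over all eligible bins, which were not chosen on either side, the same difference ran from -4.24 to -2.30 points, the calves being higher.

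**Figure D3:**
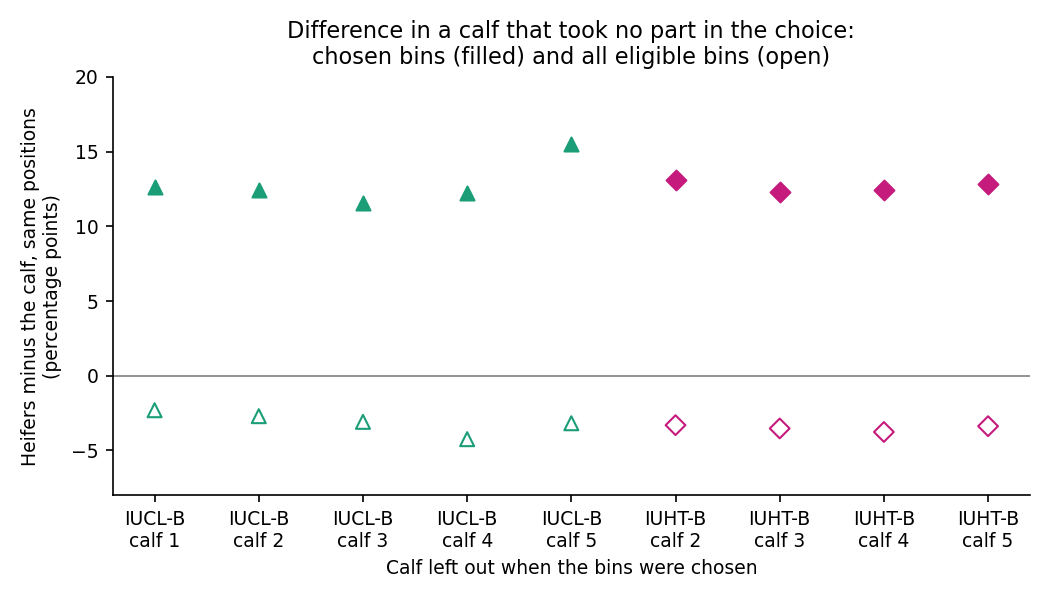
Heifer level minus calf level (percentage points) at the same positions, for each calf left out when the bins were chosen (x axis), in the chosen bins (filled) and in all eligible bins (open). Filled points lie between 11.6 and 15.5 points, and open points between -4.24 and -2.30 points.

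Sizes shrank outside the calves with the most positions. Bins chosen with IUCL-B calves 4 and 5 as the only calves numbered 1529, and 919 of them had at least 20 positions in the other 7 calves. Their median difference was 18.8 points to the choosing calves and 8.22 points to the 7 others, with the heifers that chose the bins on the mammary side of both values. Against the 7 others 70.9% of the bins were above 0 and 28.4% were at 15 points or more. The eligible bins measured in the same way had a median of -4.18 points, with 32.3% above 0 and 3.53% at 15 points or more. Likewise, choosing in IUCL animals alone gave 2073 bins, of which 313 had enough positions in IUHT animals, and their median went from 18.9 to 8.62 points. Of these, 71.2% were above 0 in IUHT animals, against 32.9% of eligible bins. IUHT animals alone had only 572 eligible bins, and 4 reached 15 points.

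The spread between animals was larger in the chosen bins than in eligible bins as a whole. Their median SD over heifers was 6.20 points, against 4.80, and the median distance between IUCL-B calves 4 and 5 was 8.46 points, against 6.05. Among bins at 20 to 40% in heifers the median SD was 8.66 points in chosen and 9.37 in all eligible bins, and at 60 to 80% it was 5.92 and 5.01 points. The distance between the 2 calves was 8.61 and 8.64 points in bins at 20 to 40% in liver, and 9.93 and 7.33 points at 60 to 80%.

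Inside the chosen bins some windows reached 15 points and others did not. A window needed only 5 positions in each tissue, so its level is less certain than that of a bin. Whether the difference varied inside a bin beyond that error was not tested. Of 7602 windows of 1 kb with at least 5 positions in each tissue, 46.9% were lower in liver by 15 points or more and 5.63% were higher by as much, against 11.6 and 21.2% over all eligible bins. At least 3 such lower windows occurred in 669 chosen bins (49.6%, against 5.60% of eligible bins), and 365 had at most 1. The choice used these values, so the shares are a description. Windows under 20% in both tissues, the pattern of an unmethylated CpG island, were present in 39.5% of the chosen bins and in 21.5% of eligible bins. A window under 20% in liver and at 60% or more in mammary gland was found in 266 chosen bins (19.7%) and in 1.71% of all eligible bins. Most of the 1348 bins therefore held no such window among those measured, which were a median of 5 per chosen bin.

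Per position, the 2 tissues differed in the share of cytosines with low levels. In the chosen bins 54.1% of liver positions were at 20% or less and 39.0% at 80% or more, and in mammary gland 25.7 and 53.3%. The pooled liver shares followed IUCL-B calves 4 and 5. In each of the 7 other calves more positions were high than low, with 44.0 to 48.0% at 20% or less and 51.3 to 55.1% at 80% or more, against 21.8 to 22.9% and 75.7 to 77% over all eligible bins of the same calves. Over all eligible bins the pooled shares were 25.2 and 68.7% in liver and 20.9 and 59.1% in mammary gland. Positions in between made up 6.94% in liver and 21.0% in mammary gland in the chosen bins, close to 6.07 and 19.98% over all eligible bins. Within single animals these shares were lower, at 0.475 to 3.39% in calves and 8.57 to 10.5% in heifers in the chosen bins.

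Chosen bins lay on all 29 autosomes. The count was highest on chromosome 19 with 99 bins, 2.87% of its eligible bins, and the share ran from 1.32% on chromosome 14 to 2.98% on chromosome 23. Near chromosome ends their share was lower. The last 5 Mb of the chromosomes held 10.2% of chosen and 17.2% of eligible bins, and the first 5 Mb held 4.15 and 6.39%.

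Neighbouring bins tended to be chosen together. Among the eligible bins directly next to a chosen bin, 11.3% were chosen, against 2.30% of all. At 20 kb the share was 6.16%, at 50 kb 4.87%, at 100 kb 3.06%, and at 200 and 500 kb it was 2.03 and 2.00%. Neighbours that were not chosen were mostly higher in liver, by less when close to a chosen bin, with a median mammary minus liver difference of -0.84 points at 10 kb, -1.99 at 20 kb, -2.50 at 50 kb, -3.24 at 100 kb, -2.85 at 200 kb and -3.39 at 500 kb, compared with -3.52 over all eligible bins that were not chosen. At 30, 40 and 70 kb the shares were 6.08, 3.96 and 4.80% and the medians -1.80, -2.47 and -2.71 points, so the decline with distance was uneven. Neighbouring bins share animals and libraries, and their agreement was not tested.

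**Figure D4:**
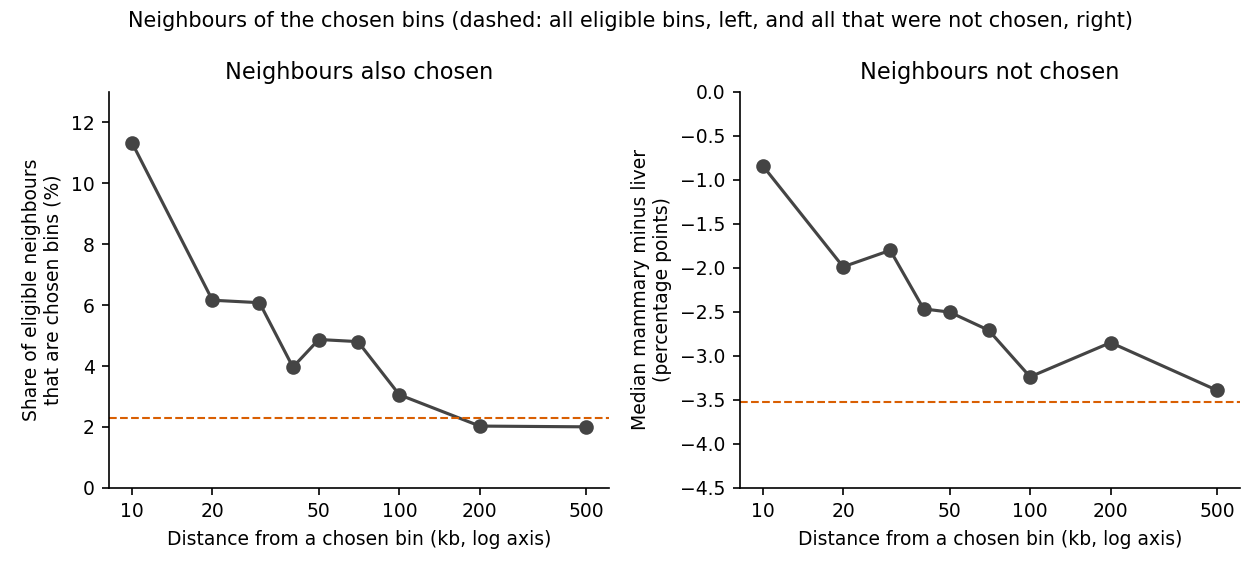
Left, percent of eligible bins that are chosen, and right, median mammary minus liver difference (percentage points) of the bins that are not, by distance from a chosen bin (kb, log axis); dashed lines give all eligible bins (left, 2.30%) and all that were not chosen (right, -3.52 points). The share falls from 11.3% at 10 kb to 2.03% at 200 kb, and the median from -0.84 points at 10 kb to -3.24 points at 100 kb, with -2.85 points at 200 kb.

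Joining chosen bins whose starts were at most 50 kb apart gave 1168 groups. Single bins made up 1036 of them, 111 were pairs and 21 had 3 bins or more, so that 312 chosen bins had a chosen partner nearby. The 3 largest groups all had low to intermediate levels in both tissues, with mammary means of 47.2 to 51.9% and liver means of 19.5 to 27.4%, well under the levels of an average bin.

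The largest group was chr5:26080000-26229999, in which 11 of 14 eligible bins were chosen, with a median difference of 21.6 points. The IUCL-H heifers were at 43.4, 54.5 and 50.5% over its chosen bins and the IUHT-H heifers at 43.8, 47.3 and 39.7%. IUCL-B calves 1 to 5 were at 32.9, 27.1, 24.5, 24.6 and 16%, and IUHT-B calves 2 to 5 at 27.6, 21.7, 16.1 and 46.7%. All calves but IUHT-B calf 5, which had 30 positions there, were below every heifer. In the 3 eligible bins inside the group that were not chosen the means were 42.2% (IUCL-H), 37.5% (IUHT-H), 37.6% (IUCL-B) and 34.3% (IUHT-B). The rule kept large differences in the chosen bins and smaller ones in the others, so the gap between these 2 kinds of bin is no result. In the 100 kb on either side the group means ranged from 47.6% (IUHT-B) to 57.2% (IUCL-H).

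In chr7:54070000-54199999, 9 of 11 eligible bins were chosen, with a median difference of 22.2 points. Heifers were tightly grouped, at 51, 56.8 and 54.7% in IUCL-H and 52.1, 50.8 and 51.9% in IUHT-H. The IUCL-B calves were at 36.1, 23.1, 30.2, 27.9 and 26.9% and the IUHT-B calves at 29.6, 41.7, 22.5 and 29.4%. Here all 9 calves were below all 6 heifers, also the 7 with 12 to 78 positions. In the 2 bins inside that were not chosen the means were 46.9% (IUCL-H), 44.6% (IUHT-H), 28.8% (IUCL-B) and 38.5% (IUHT-B). On either side they were 59.1% (IUCL-B), 68.1% (IUHT-B), 66.4% (IUCL-H) and 64.9% (IUHT-H).

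The third group, chr4:69310000-69399999, held 7 chosen bins of 9 eligible and had the largest median difference of the 3, 28.9 points. The IUCL-H heifers were at 56.7, 59.3 and 39.8% and the IUHT-H heifers at 50.2, 50.1 and 44.9%. IUCL-B calves 1 to 5 were at 32.9, 38.9, 18.4, 17.2 and 15.1%, and IUHT-B calves 2 to 5 at 39.2, 34.0, 6.46 and 40.7%. Calves were widely spread, and IUHT-B calf 5 (27 positions) was above the lowest heifer. The 2 bins inside that were not chosen had means of 26.4% (IUCL-H), 22.8% (IUHT-H), 13.1% (IUCL-B) and 20.8% (IUHT-B). In its flanks the tissues did not separate, with means of 36.8% (IUCL-B), 40.5% (IUHT-B), 37.7% (IUCL-H) and 34.5% (IUHT-H).

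The choice did not use the treatment labels, and the heifer level averages 3 heifers of each treatment with similar coverage. The liver level, however, was set mainly by IUCL-B calves 4 and 5, so choosing low liver levels also chose low IUCL-B values. Liver treatment differences in these bins are therefore not independent of the choice and are given as a description. Over the positions of the chosen bins the mean was 68.8% ± 4.02 (SD, n = 3) in IUCL-H and 66.6% ± 2.26 (n = 3) in IUHT-H. In liver it was 49.6% ± 7.38 (n = 5) in IUCL-B and 52.4% ± 0.91 (n = 4) in IUHT-B. These treatment groups overlapped in each tissue.

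By bin, with methylated and unmethylated calls summed in each animal and compared by edgeR's quasi-likelihood test, no chosen bin differed between IUHT-H and IUCL-H at an adjusted p of 0.05. The test covered 1346 chosen bins and 58588 in all, of which 0% were called. At an unadjusted p under 0.05 it gave 67 chosen bins (4.98%), against 2.95% of all. The median IUHT-H minus IUCL-H difference was -1.21 points in the chosen bins and -0.28 over all bins. Both values turned on single heifers, and those over all bins moved with them. Without IUCL-H heifer 2 there were 41 chosen bins (3.05%, against 2.34% of all) and the medians were -0.18 and 0.06 points. Without IUCL-H heifer 3 there were 130 (9.66%, against 6.40%) and the medians were -2.84 and -0.95 points. The other omissions gave 45 to 85 chosen bins (3.34 to 6.32%, against 2.28 to 4.33%), with medians of -0.61 to -1.86 points in the chosen bins and -0.71 to 0.23 over all. In liver only 189 chosen bins had 10 calls in every calf, and 0 of these were called, against 22 of 13425 bins (0.164%). Unadjusted, 26 of the 189 (13.8%) had p under 0.05, against 11.6% of all. The median IUHT-B minus IUCL-B difference was 3.19 points in these bins and 2.99 over all bins. Without IUCL-B calves 4 and 5 it was -0.71 and 1.48 points. In that setting 0 of 189 chosen bins were called, against 3 of 13390 bins (0.022%). Unadjusted, 18 of the 189 (9.52%) had p under 0.05, against 6.67% of all. Single calves moved these values as well. Without IUHT-B calf 2 the median was 6.35 points in the chosen and 4.77 in all bins, and 44 of 190 chosen bins (23.2%) had p under 0.05, against 16.8% of all. The medians in chosen and all bins were 5.96 and 3.20 points without IUHT-B calf 5, 0.66 and 3.03 without IUHT-B calf 3, and 1.71 and 2.19 without IUCL-B calf 5. Leaving out any other calf gave 2.21 to 4.17 points in the chosen bins and 2.82 to 3.68 in all.

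The chosen bins of smallest p in mammary gland were chr18:64770000-64779999 and chr5:108630000-108639999 among those lower in IUHT-H, and chr13:16000000-16009999 and chr26:49360000-49369999 among those higher. In the first, methylated calls were 80.9, 82.7 and 84.8% in IUCL-H and 60.6, 55.4 and 62.7% in IUHT-H, a difference of -24.3 points in pooled calls. The groups were well apart, on 33 to 92 calls per heifer, but the adjusted p was 1 in edgeR's quasi-likelihood test over all bins, as for the other 3, whose differences were -9.99, 10.8 and 7.95 points. The chr13 bin opens a group of 3 neighbouring chosen bins, and its methylated calls were 28.7, 24.7 and 29.5% in IUCL-H and 40.9, 33.3 and 41.0% in IUHT-H.

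In liver the chosen bins of smallest p were chr25:430000-439999 and chr1:68070000-68079999 (higher in IUHT-B) and chr3:16260000-16269999 and chr26:22370000-22379999 (lower). All percents of these 4 bins are shares of calls, in which a position counts by its reads, whereas the bins were chosen on position means. By position means no chosen bin was above 79.7% in liver. The first had 90.7, 95.5, 81.1, 74.1 and 81.6% methylated calls in IUCL-B and 99.3% in IUHT-B calf 2 and 100% in its 3 other calves, a difference of 16.6 points. The groups did not overlap. In chr3:16260000-16269999 the IUCL-B calves were at 99.4, 100, 98.8, 87.0 and 39.2% and the IUHT-B calves at 57.8, 2.13, 0 and 0% (-52.9 points), and IUCL-B calf 5 fell within the IUHT-B range. The other 2 differed by 27.9 and -57.2 points, and none of the 4 passed an adjusted p of 0.05. Values at or near 0 or 100% were common in these bins among calves with few positions.

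At single sites the model of the study was used, a logistic regression without a term for the spread between animals, where each animal had more than 10 reads at the site. A differentially methylated cytosine (DMC) differed by at least 15 points at a q-value of 0.2 or less. In mammary gland 57 sites of 11 chosen bins were tested and 5 were DMCs, against 1.54% of all 18486 sites. The 57 were not separate observations, since 19 lay within 59 bases of chromosome 25 and 17 within 206 bases of chromosome 11. Of the DMCs, 2 lay in 1 bin of chromosome 2, whose 5 tested sites spanned 116 bases. Of the 5 DMCs, 1 was higher in IUHT-H (0.427% of all sites) and 4 were lower (1.11%). These 5 are named after their values were seen. The higher one, chr7:51293125, was at 34.2, 34.8 and 34.2% in IUCL-H and 67.9, 54.3 and 66.7% in IUHT-H, on 23 to 208 reads per heifer, and the groups were far apart. Of the lower ones, chr11:106224831 also had separate groups, with 90.4, 82.4 and 81.4% in IUCL-H and 60, 70 and 69.0% in IUHT-H. At chr2:19944311, chr2:19944330 and chr25:32472576 the groups overlapped, with IUCL-H heifer 3 near or below the IUHT-H values (28.1, 19.7 and 5.41%). Without IUCL-H heifer 3 there were 18 DMCs of 57 sites (against 1.72% of all), without IUHT-H heifer 2 there were 8 of 65 (1.96%) and without IUHT-H heifer 3 there were 3 of 61 (1.39%). With edgeR's quasi-likelihood test or an overdispersion term 0 of all sites tested were DMCs. The overdispersion, which is the spread between animals of a group relative to counting error alone, had a median of 2.06 at the sites of chosen bins and 1.13 at all sites.

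In liver 18 sites lay in 3 chosen bins, and 8 were DMCs, against 33.1% of the 900 sites tested. All 8 were higher in IUHT-B, as were 14.2% of the tested sites, while 18.9% were lower. Without IUCL-B calves 4 and 5, 8 of 20 sites were DMCs, against 37.4% of all. The 8 among the 18 sites were not separate observations, since 7 of them lay within the 11 tested sites of chr25:32472590-32472629, a run of 40 bases, shorter than 1 sequencing read. At its last DMC, chr25:32472625, IUCL-B calves 1 to 5 were at 0, 0, 0, 3.7 and 3.1% and IUHT-B calves 2 to 5 at 52.4, 93.8, 35.9 and 2.3%. IUHT-B calf 5 was within the IUCL-B range, and the pooled difference was 43.8 points. IUHT-B calf 3 changed from 97.3% at chr25:32472590 to 3.2% at chr25:32472594 and 94.7% at chr25:32472601, on 184 to 190 reads, and IUHT-B calf 5 was at 92.0, 91.2 and 0.9% at the same sites. The eighth DMC, chr16:622428, was at 94.5% in IUHT-B calf 5 and at 0 to 19.9% in all other calves. In none of the 8 were the groups apart, and with edgeR's quasi-likelihood test or an overdispersion term none of the 18 sites was a DMC, against 0.223 and 6.33% of all liver sites tested. The median overdispersion was 50.4 at these 18 sites and 32.1 at all liver sites, and the logistic regression has no term for this spread.

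**Figure D5:**
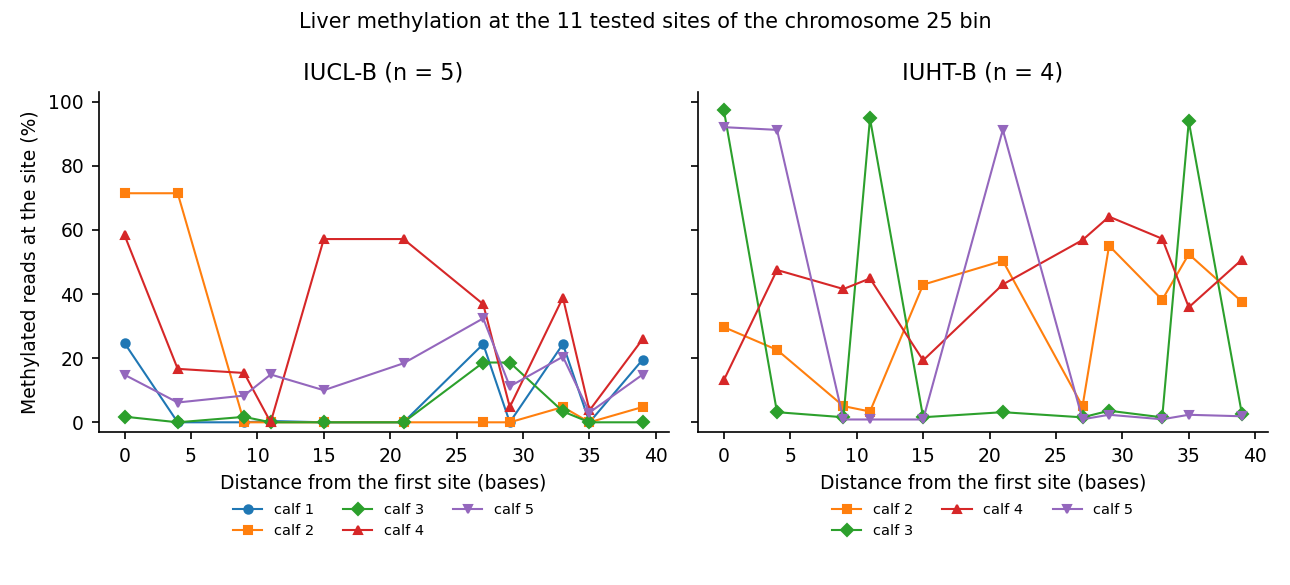
Percent of methylated reads in liver at the 11 tested sites of the chosen bin on chromosome 25, by distance from the first site (bases), for the 5 IUCL-B calves (left) and the 4 IUHT-B calves (right), with a line for each calf. Lines of single IUHT-B calves jump between values under 5% and over 90% from site to site, and at no site do the 2 groups separate.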

How the data were processed

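Genomic DNA was cut with MspI and TaqαI, bisulfite converted and sequenced. Per the labels, reads were processed with Trim Galore 0.4.4 and Bismark 0.17.0 on assembly UMD3.1. The study's methods name UMD3.1.1 and other versions of both tools. The authors deposited, for each position of each animal, the percent of methylated reads and the counts of methylated and unmethylated reads, with no coverage minimum. The 2 strands of a CpG were listed apart. Reads carried no molecular identifiers, so PCR copies count as reads. One animal gave 1 library, and edgeR p-values measure the spread between these animals, whereas those of the logistic regression measure counting error only.

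Levels used the percent column. Treatment was tested on counts with edgeR 4.0.16 (R 4.3.3, bins with at least 10 calls in every animal) and by logistic regression with Benjamini-Hochberg adjustment over all sites. Both were run on simulated data, but the simulated sites had no spread between animals. That simulation therefore cannot show how the logistic regression does on these data. Alternatives used limma 3.58.1, an overdispersion term and other minimums. Named bins were the 10 of largest difference with 20 positions in every heifer and 10 in at least 5 calves, the 3 largest groups, 3 on each side of the threshold, and 2 per direction and tissue by treatment p. The members and all lists were chosen with earlier results of these data known. Lists of marker genes were not placed on the bins, because the gene table used another assembly, so genes are not named. Calves of the same number in the 2 groups did not deviate together (correlations of -0.00025 to 0.013 over bins), so numbers were not taken as pairs.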

Additional observations from a re-analysis of the deposited data

How the results depend on the processing

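The number of chosen bins (1348) was set by coverage and definition. It was 2238 with 30 positions per tissue (2.35% of eligible bins) and 540 with 100 (2.28%), against 2.30% in the main setting. It was 3528 at a threshold of 10 points (6.02%), 559 at 20 (0.954%) and 722 on shared positions (2.01%). Weighting positions by reads gave 4550 (7.76%), centring on the median 2585 (4.41%), IUCL animals 2073 of 53385 and IUHT animals 4 of 572. Without IUCL-B calves 4 and 5 it was 87 of 6349 eligible bins, and without single animals 562 to 1804, the lowest without IUCL-B calf 5. Groups of neighbours (1168) numbered 1917, 457, 2739, 500, 615, 3441, 2109, 1721 and 4 under the same alternatives, 84 without those 2 calves and 499 to 1551 without single animals. Weighting by reads shared only 766 bins with the 1348. With positions of at least 3 reads, 1396 of 21972 eligible bins were chosen (6.35%), 385 of them among the 1348. Merging the strands of a CpG gave 1052 of 51662 eligible bins (2.04%), 893 of them among the 1348. The causes were not tested. The 10 named bins kept their direction in the 234 values obtained, the lowest 8.24 points with all calves but IUCL-B 4 and 5 and no position minimum, a setting added after seeing the data. At 50 positions only 1 of the 10 had a value without those calves and 8 had one without IUCL-B calf 5. The 10 bins were picked for large differences, so their kept direction is a description. The minimums of 30 and 100 positions repeat the main value in 10 and 8 bins, and centring raises all 10 alike. Those values could not change direction. Of the 234 values, 34 moved by at least the SD over heifers.

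Treatment calls in chosen bins were 0 in both tissues by edgeR. They were 121 in mammary gland (8.99%, against 4.78% of all bins) and 161 in liver (85.2%, against 87.3%) by logistic regression without overdispersion, 1 in liver by its F test with overdispersion (0.529%, against 0.693%), and 2 in liver at an adjusted p of 0.2 (1.06%, against 1.96%). Mammary DMCs (5) numbered 2 at a q-value of 0.05 (0.563% of all sites were called), 1 at 25 points (0.184%), 1 of 20 sites with more than 20 reads (1.19%), 0 by the F test, 0 by edgeR, and 3 to 18 without single heifers. Liver DMCs (8) numbered 3 of 7 sites with more than 20 reads (27.7% of all), 0 by the F test and 0 by edgeR.

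The calf number was also used as a replicate block in calves 2 to 5, which the data gave no sign of being pairs. Liver DMCs were 7 of 18 sites with and without the block, against 32.3 and 33.1% of all 910 sites. Of 193 chosen bins 0 were called either way, against 11 and 21 of 13559 bins (0.081 and 0.155%).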
